A study of Mus musculus with 3 samples.

Results

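The genes described here encode 10 enzymes of glycolysis, and their RNA was compared in mouse ovarian surface epithelial cells kept epithelial or made mesenchymal. The members were fixed by name: Hk1, Hk2, Pfkl, Pfkp, Aldoa (on the array as Aldo1), Gapdh (Gapd), Pgk1, Eno1, Pkm (Pkm2) and Ldha (Ldh1). All 10 were found, of 10008 named genes, with 15 of the 20371 probes of the array that are not control spots. The cells came from ovaries of virgin C57/Bl6 females that had been superovulated and mated, and no genotype other than the strain is given. Epithelial cells were grown in 2.5% fetal bovine serum and mesenchymal cells in 15% serum for 1 week, and both were harvested at 80% confluence. Each of 3 biological replicates, called cultures here, gave an amplified epithelial and an amplified mesenchymal RNA (n = 3 unless stated). The RNA pair was put on 2 arrays that exchanged the dyes Cy3 and Cy5, so there were 6 arrays. The effects of serum and of phenotype cannot be told apart, nor in bulk RNA can fewer cells of a type and less RNA per cell.

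Glycolysis turns glucose into pyruvate in the cytosol. Hexokinase traps glucose as its phosphate, phosphofructokinase commits the sugar to breakdown, and aldolase splits it. Glyceraldehyde-3-phosphate dehydrogenase, phosphoglycerate kinase, enolase and pyruvate kinase then carry the fragments to pyruvate with a yield of ATP, and lactate dehydrogenase reduces pyruvate to lactate. Several steps have isozymes from separate genes. Hk1 is the broadly expressed hexokinase and Hk2 the inducible one, both able to sit on the outer mitochondrial membrane, while Pfkl and Pfkp are the liver and platelet types of phosphofructokinase. Many genes of the pathway are known targets of the hypoxia-inducible factors and of MYC.

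In the mesenchymal cells Hk1 rose 1.92-fold, and none of the other 9 genes passed the test. Hk2, the inducible isozyme of the same step, had a log2 ratio of mesenchymal over epithelial RNA of -0.19 ± 0.15 (SD). For 5 genes, Aldoa, Gapdh, Pgk1, Pkm and Ldha, at least 1 RNA saturated the brightest probe on all 6 arrays, so that probe set no fold. Gapdh and Ldha also had a dimmer probe below saturation. A gene was called when the adjusted p of its brightest probe (limma, Benjamini-Hochberg over 20185 probes) was under 0.05. By that rule 1 of the 10 genes was higher and 0 were lower, beside 5.60% of all probes higher and 5.66% lower. The count of 10 includes the 5 genes with a saturated brightest probe, which the rule could hardly call. For these 5, not being called says nothing of a change. The 0 lower rests on limma; Pfkp alone among the lower values had an unadjusted p under 0.05, and median centring called it. Over the 6 genes with a probe that was never saturated, the median log2 ratio of the brightest such probe was 0.012, beside -0.003 over all probes tested. This median includes the dimmer Ldha probe, whose values followed the dye (0.35 ± 1.02).

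The median Cy3 signal of the array of culture 1 with epithelial RNA in Cy3 was 1039, against 2107 to 3261 on the others. The array of culture 3 with epithelial RNA in Cy5 had 1639 outlier-flagged probes against 61 to 467 elsewhere, and its background was subtracted by another method. The dye effect, the part of a log2 ratio that follows the dye and not the cells, passed the threshold for 57.7% of probes, with Cy3 the brighter dye for 30.8%. Of the 9 member probes that were never saturated it passed for 6, and 4 of these were brighter in Cy3. Each culture holds both dye orientations, so a dye effect that is equal on its 2 arrays cancels in its mean. A dye effect that differs between them does not cancel. In culture 2 the dimmer Ldha probe gave -1.33 with mesenchymal RNA in Cy5 and 3.83 with it in Cy3. Of 10 markers of the ovarian surface epithelium 7 were measured, with a median level at percentile 96.8 of the probes tested. They included 6 that were lower in mesenchymal cells, although dimmer probes of Krt7 and Krt8 did not pass. Of 26 measured markers of granulosa, theca, blood, endothelial and oocyte types, 1 was lower (Inhbb, log2 ratio -0.64) and 1 higher (Ddx4, 1.66). By type the median levels of these 26 lay at percentiles of 30.4 to 43.7. All were well above background with both RNAs on at least 4 of 6 arrays. Their part in the results was not tested.

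Hk1 was the called member and Hk2 is its isozyme, so the 250 bases before their annotated starts are shown, from RefSeq (GRCm38.p6). Hk1 has gene ID 15275 and lies on chromosome 10 (62268855 to 62379920), Hk2 has gene ID 15277 and lies on chromosome 6 (82725025 to 82774454). Both are transcribed from the minus strand, and Hk1 has 2 listed starts. Capitals mark ACGTG on either strand (CACGT when read from the other strand), 1 of the 2 forms of the core that hypoxia-inducible factors bind. The other form, GCGTG, which reads CACGC from the other strand, is not in capitals.
Hk1 start 1, chr10:62379909-62380158, minus strand: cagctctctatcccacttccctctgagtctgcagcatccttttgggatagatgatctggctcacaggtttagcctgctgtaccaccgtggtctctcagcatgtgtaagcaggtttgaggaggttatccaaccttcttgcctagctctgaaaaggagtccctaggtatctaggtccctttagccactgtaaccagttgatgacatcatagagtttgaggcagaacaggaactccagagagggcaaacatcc
Hk1 start 2, chr10:62340422-62340671, minus strand: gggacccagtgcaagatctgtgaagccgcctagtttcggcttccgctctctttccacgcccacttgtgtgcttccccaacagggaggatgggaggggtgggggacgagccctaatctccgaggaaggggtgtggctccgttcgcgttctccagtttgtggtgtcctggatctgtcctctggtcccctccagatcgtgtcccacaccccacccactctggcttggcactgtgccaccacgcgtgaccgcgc
Hk2, chr6:82774455-82774704, minus strand: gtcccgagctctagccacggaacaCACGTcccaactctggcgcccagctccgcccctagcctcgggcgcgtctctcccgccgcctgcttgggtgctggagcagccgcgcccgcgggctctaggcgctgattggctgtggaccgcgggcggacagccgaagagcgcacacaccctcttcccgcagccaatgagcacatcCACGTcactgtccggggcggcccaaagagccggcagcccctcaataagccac
The Hk2 stretch holds 2 matches to ACGTG and 0 to GCGTG. Hk1 start 1 holds 0 of either form, and Hk1 start 2 holds 0 matches to ACGTG and 3 to GCGTG. Over all 32851 promoters of the table, 16.6% hold ACGTG and 28.2% hold GCGTG at least 1 time in the same window. Among the members 6 of 17 listed starts hold 1 or more matches to ACGTG. They belong to 5 of the 10 genes (Hk2, Aldoa, Pgk1, Pkm and Ldha), and 2 of these starts, both of Aldoa, overlap and share 1 match. The other genes, Hk1, Pfkl, Pfkp, Gapdh and Eno1, each hold GCGTG at 1 or more listed starts, as does Ldha. A match is a stretch of letters and not a measured site, and the array does not say which start was used.

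Hk1 was higher in mesenchymal RNA on every array and in both dye orientations. With mesenchymal RNA in Cy5 the log2 ratios were 0.99, 1.06 and 0.95 in cultures 1, 2 and 3, and with it in Cy3 they were 1.04, 0.88 and 0.73. The culture means were 1.01, 0.97 and 0.84. Their mean was 0.94 ± 0.09, a 1.92-fold difference with a 95% interval of 1.69 to 2.17 (limma adjusted p = 0.00123). Scaled to separate channels, mesenchymal levels were 14.47, 14.46 and 14.25 and epithelial levels 13.45, 13.49 and 13.41 on the log2 scale, so the groups did not overlap. No spot of this probe was saturated, and its dye effect, 0.058, did not pass (limma adjusted p = 0.445). Hk1 stayed called under all 16 alternatives, with log2 ratios from 0.91 to 0.99.

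Hk2 had 2 probes and neither passed. The brighter gave -0.36, -0.17 and -0.050 in cultures 1, 2 and 3, a mean of -0.19 ± 0.15 (limma adjusted p = 0.251) with a 95% interval of 0.758-fold to 1.01-fold. Its arrays separated by dye. The 3 arrays with mesenchymal RNA in Cy5 gave -0.58, -0.68 and -0.32, and those with it in Cy3 gave -0.14, 0.34 and 0.22. The dye effect was -0.33 (limma adjusted p = 0.00537), larger than the difference between the cells. The dimmer Hk2 probe, with signals of 179 to 364 against 1676 to 4682 at the brighter one, gave 0.021 in culture 2 and -0.062 in culture 3, and culture 1 had no value because 1 spot was outlier-flagged (n = 2).

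The change of Hk2 was below that of Hk1 in each culture, by 0.89 to 1.37 on the log2 scale. The mean difference was -1.13 ± 0.24, with an exact two-sided sign-flip permutation p of 0.25, the smallest that 3 cultures allow. For phosphofructokinase, Pfkp minus Pfkl was -0.41 ± 0.24, also negative in all 3 cultures (exact permutation p = 0.25). These were the 2 isozyme pairs compared, and the exact test cannot reach 0.05 for either with 3 cultures. The Pfkp result belongs to its brightest probe. With the second Pfkp probe the difference was 0.046, -0.074 and -0.024 in cultures 1, 2 and 3, and with the third it was -0.094, -0.23 and -0.13.

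**Figure D1:**
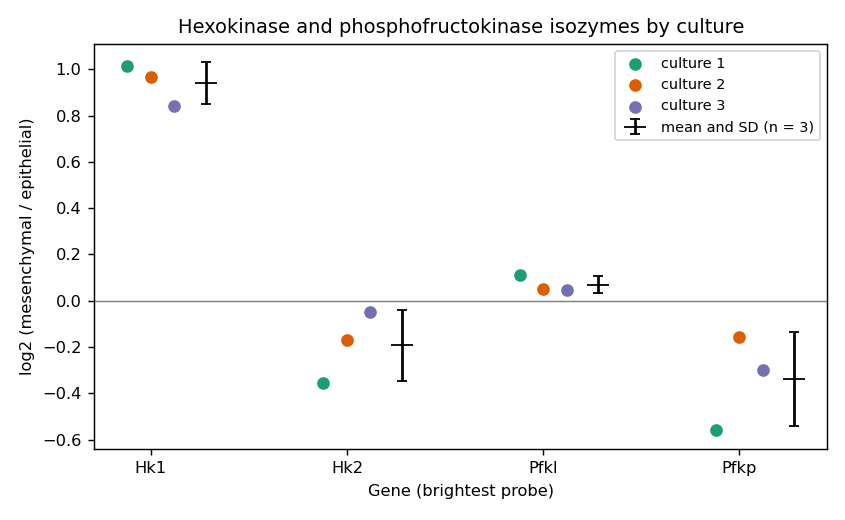
Log2 ratio of mesenchymal over epithelial RNA (vertical axis) of the brightest Hk1, Hk2, Pfkl and Pfkp probes, 1 point per culture, with mean and SD. Hk1 lies between 0.84 and 1.01, while Hk2 and Pfkp lie below 0 and Pfkl just above it.

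Pfkl, the liver-type phosphofructokinase gene, lay within 0.046 to 0.11 in the 3 cultures. Its mean log2 ratio was 0.070 ± 0.036 (limma adjusted p = 0.659), and the 95% interval ran from 0.934-fold to 1.18-fold. Its single probe was never saturated, and 4 arrays were above 0 and 2 below.

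Pfkp, the platelet-type gene, had 3 probes that did not give 1 answer. The brightest gave -0.56, -0.16 and -0.30 in cultures 1, 2 and 3, a mean of -0.34 ± 0.21 (limma adjusted p = 0.0847), with a 95% interval of 0.672-fold to 0.930-fold before adjustment. Single arrays again separated by dye. Mesenchymal RNA in Cy5 gave -0.86, -0.71 and -0.80, mesenchymal RNA in Cy3 gave -0.26, 0.40 and 0.20, and the dye effect was -0.45. The call was made without culture 1 (log2 ratio -0.23, limma adjusted p = 0.0204), where 32.3% of all probes passed, and with median centring (-0.34, adjusted p = 0.0436). The other Pfkp probes were dimmer, with signals of 186 to 1256 and 170 to 402 against 1208 to 4698 at the brightest. They gave 0.052 ± 0.094 and -0.082 ± 0.099, with limma adjusted p of 0.779 and 0.631.

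**Figure D2:**
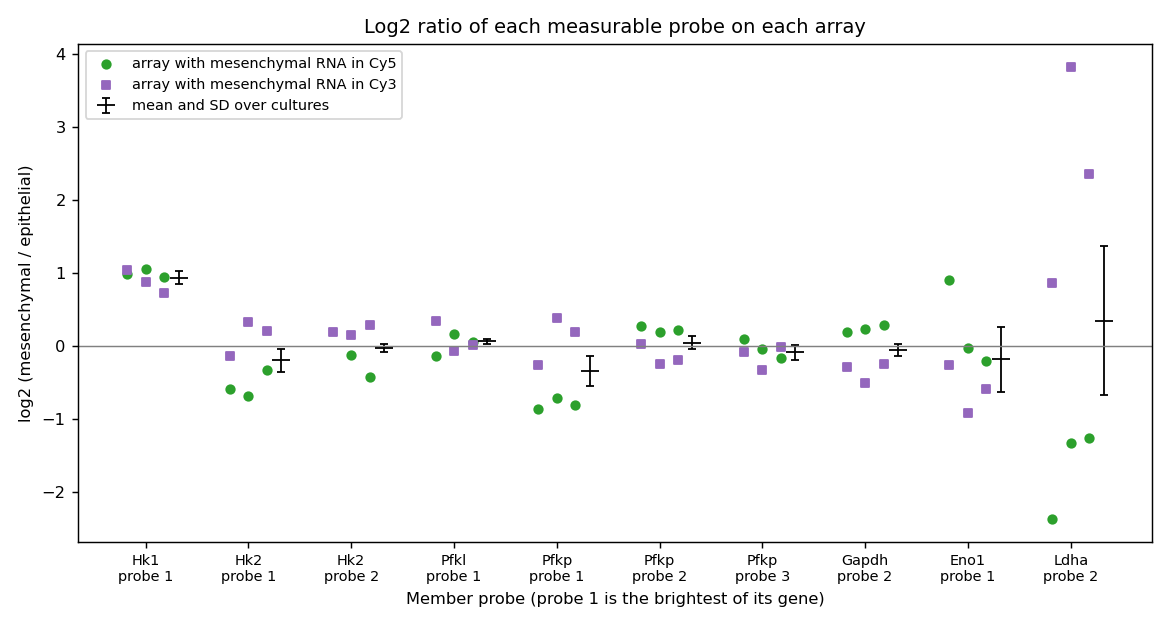
Log2 ratio of mesenchymal over epithelial RNA (vertical axis) for the 10 member probes not saturated for an RNA on all arrays. Each symbol is 1 array, circles with mesenchymal RNA in Cy5 and squares in Cy3, in culture order within a probe, and bars are mean and SD over cultures. The symbols of Hk1 lie together near 1, those of Ldha probe 2 split by dye from -2.36 to 3.83.

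The middle and late steps of the pathway were at or near the ceiling of the scanner, whose saturated member spots read 65257 to 65287. Gapdh, the dehydrogenase gene widely used as a loading reference, and Pkm, the pyruvate kinase gene, were saturated for both RNAs on all 6 arrays. Their fitted values were the same, -0.12, -0.019 and 0.023 in cultures 1, 2 and 3, and the mean, -0.040, was shared to the third decimal by all 106 tested probes saturated this way. Such a value describes the ceiling and the scaling of each array. It gives no ratio of Gapdh or of Pkm, and Pkm2 on the array is the older gene symbol, from which no isoform is read. In all 0.530% of probes were saturated for both RNAs on all arrays, and 2 of the 10 genes had such a brightest probe.

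Aldoa (aldolase), Pgk1 (phosphoglycerate kinase) and Ldha (lactate dehydrogenase) reached saturation with mesenchymal RNA on 6 arrays and with epithelial RNA on 5. The exception was the same array each time, that of culture 1 with epithelial RNA in Cy3, where the epithelial signals were 31385, 48100 and 47372. That array is also the one with the low Cy3 median given above. Its log2 ratios, 1.03 for Aldoa, 0.41 for Pgk1 and 0.44 for Ldha, rest on 1 array and 1 dye orientation against a saturated mesenchymal spot. No fold is given for these genes, since on the other 5 arrays both RNAs were saturated.

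Eno1, the enolase gene, was the bright member still partly on scale. Its log2 ratio was 0.33 in culture 1, -0.47 in culture 2 and -0.40 in culture 3, so the cultures differed in sign, and the mean was -0.18 ± 0.44 (limma adjusted p = 0.622). The culture 1 value joins 0.92 with mesenchymal RNA in Cy5 and -0.26 with it in Cy3, and all 4 arrays of cultures 2 and 3 were below 0. The epithelial spots of culture 3 were saturated on both arrays, with 93.8% and 100% of pixels at the ceiling, so the epithelial level there is a lower bound. Without culture 1 Eno1 was called lower, at -0.43, in a fit that gave every probe the same variance and called 32.3% of all probes. It was -0.033 without culture 2, -0.071 without culture 3 and -0.071 with saturated spots left out, and was not called in these.

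**Figure D3:**
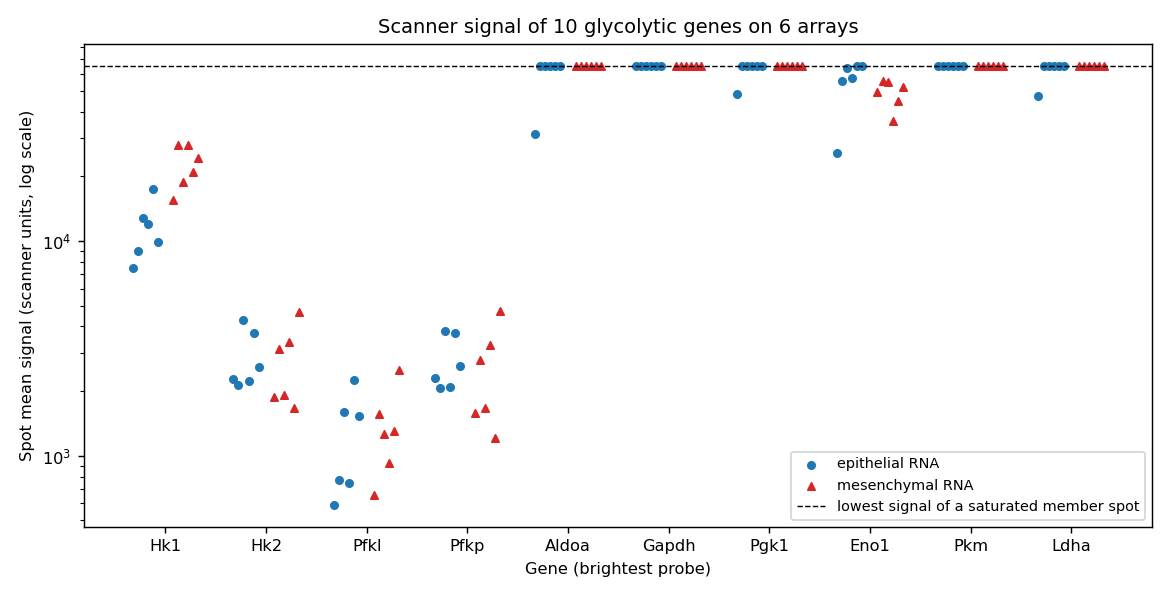
Spot mean signal in scanner units (log axis) of the brightest probe of each gene, 6 arrays per RNA in array order from left to right. Aldoa, Gapdh, Pgk1, Pkm and Ldha sit at the dashed line of saturation except 1 epithelial spot each of Aldoa, Pgk1 and Ldha, while Hk1, Hk2, Pfkl and Pfkp lie below it on all arrays.

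Gapdh and Ldha each had a further probe below saturation. The second Gapdh probe gave -0.037, -0.13 and 0.030 in cultures 1, 2 and 3, a mean of -0.046 ± 0.081 (limma adjusted p = 0.802) and a 95% interval of 0.857-fold to 1.10-fold. It was above 0 on the 3 arrays with mesenchymal RNA in Cy5 and below 0 on the 3 with it in Cy3. Its signals were 745 to 6695, against 65257 or more at the saturated Gapdh probe. How well the dimmer probe reports Gapdh RNA was not tested. The second Ldha probe followed the dye. Cy3 was the brighter channel on all 6 arrays whichever RNA it held, with log2 ratios of -2.36, -1.33 and -1.26 for mesenchymal RNA in Cy5 and 0.87, 3.83 and 2.37 for mesenchymal RNA in Cy3. Its dye effect was -2.00 (limma adjusted p = 2.79e-05), and the culture values, -0.75, 1.25 and 0.55, differed in sign. The mean, 0.35 ± 1.02, did not pass (adjusted p = 0.656), and its sign turned without culture 2 (-0.099). Without culture 1 it was called higher (0.90). No direction is read from it.

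Of 117 other genes of glucose metabolism and its regulation, 87 were measured. Of these 11 were lower in mesenchymal cells, 6 were higher, and 70 did not pass, beside 5.66% lower and 5.60% higher over all probes. Of the 17 calls, 8 had the same sign on all arrays measured and 9 did not. Without the pairing of the RNAs of a culture 1 of these 17 calls remained, that of Mycn. Slc2a3, the high-affinity glucose transporter gene, fell, with log2 ratios of -1.63, -1.54 and -0.91 in cultures 1, 2 and 3. Its mean was -1.36 ± 0.39 (limma adjusted p = 0.00355), and all 6 arrays were below 0. In culture 3 the arrays differed, at -1.61 with mesenchymal RNA in Cy5 and -0.205 with it in Cy3. The latter is the array with the most outlier-flagged probes. Slc16a3, which encodes the lactate exporter MCT4, had -1.05, -0.81 and -0.75 (mean -0.87 ± 0.16, adjusted p = 0.00254), also below 0 on all 6. Slc2a1, the basal glucose transporter gene, was called higher at 0.46 ± 0.05 (n = 2, limma adjusted p = 0.0388). Its 2 arrays with mesenchymal RNA in Cy5 gave -1.12 and -1.45 and its 3 in Cy3 1.17, 1.98 and 2.45. The dye effect, -1.75, was larger than the difference, and the call was lost with median centring, outlier-flagged spots kept, another variance model, the fit over arrays and no pairing. Of the 10 carrier genes measured 2 were lower and 1 higher.

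Of 8 measured genes for the remaining glycolytic steps, 1 was lower and 1 higher, beside 5.66% lower and 5.60% higher over all probes. Aldoc, the brain-type aldolase gene, fell by 0.38 ± 0.12 (limma adjusted p = 0.0316), and Eno3, the muscle-type enolase gene, was higher by 0.44 ± 0.24 (adjusted p = 0.0481). Eno3 was above 0 on 4 arrays and below 0 on 2, with a dye effect of 0.39. The Eno3 call was lost under 8 alternatives, and that of Aldoc without culture 2, without culture 3 and with no pairing. Pgam1, the phosphoglycerate mutase gene, was saturated for both RNAs on all 6 arrays. Gpi1, the glucose phosphate isomerase gene, chosen here after its values were seen, was not called by its brightest probe (-0.23, limma adjusted p = 0.109), which was saturated for epithelial RNA on 5 arrays. Its dimmer probe, never saturated, was lower at -0.50 ± 0.05 (adjusted p = 0.00805) and below 0 on all 6 arrays. Of the makers and breakers of fructose 2,6-bisphosphate, the activator of phosphofructokinase, 0 of 3 measured passed in limma, and 1 of them, Pfkfb3, had an unadjusted p under 0.05. Pfkfb3, which makes the activator, was at -0.35 ± 0.16 (adjusted p = 0.0533) with a dye effect of -0.62. It was called lower with the scanner's processed signals, median centring, the brightest probe per gene alone and the authors' deposited table, and without culture 1, with adjusted p from 0.00656 to 0.0484. Pfkfb4 was at 0.18 ± 0.21.

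Past glycolysis, genes of pyruvate entry into mitochondria had 3 of 11 lower and 0 higher, beside 5.66% lower and 5.60% higher over all probes. None of the other genes of this entry was higher in limma, although Pdhx and Pdk4 had an unadjusted p under 0.05. Mpc1, a subunit of the mitochondrial pyruvate carrier, fell by 0.52 ± 0.05, Pdk3, a kinase that inhibits pyruvate dehydrogenase, by 0.46 ± 0.23 and Dlat, a subunit of that complex, by 0.39 ± 0.08 (limma adjusted p = 0.00703, 0.0404 and 0.0228). Mpc1 was below 0 on 3 arrays and above 0 on 3, with a dye effect of -0.76. A second, dimmer Dlat probe gave -0.083. Leaving out culture 3 ended all 3 calls, and leaving out culture 2 ended those of Pdk3 and Dlat. That of Pdk3 was also lost where 1 usable array of a culture was enough. Pdk1, a hypoxia target, was at -0.14 ± 0.14 (adjusted p = 0.404). Pck2, the mitochondrial phosphoenolpyruvate carboxykinase gene, fell by 1.02 ± 0.13 (limma adjusted p = 0.00123), below 0 on all 6 arrays, the one called gene of 4 measured in gluconeogenesis. G6pc3, a glucose-6-phosphatase gene, was at -0.084 ± 0.18.

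Calls in the side branches went in both directions. Over all probes, 11.3% were called. In the pentose phosphate pathway, Taldo1 (transaldolase) was higher by 0.37 ± 0.12 and Rpia (ribose phosphate isomerase) fell by 0.42 ± 0.04, 2 of 9 measured. In glycogen metabolism, Ugp2, which makes UDP-glucose, rose by 0.56 ± 0.13 and Gys1 (glycogen synthase) fell by 0.62 ± 0.17, 2 of 10 measured, while a second Gys1 probe gave -0.085. In the citric acid cycle 2 of 17 were higher, Sdhb at 0.39 ± 0.12 and Suclg1 at 0.39 ± 0.16, and 0 were lower in limma. Suclg1, Taldo1 and Ugp2 were above 0 on 3 arrays and below 0 on 3, with dye effects of -1.35, -0.54 and -0.71. Rpia was above 0 on 2 arrays and below 0 on 4, with a dye effect of -0.345. The highest limma adjusted p among these 6 genes was 0.0403. For Taldo1, Rpia, Ugp2, Sdhb and Suclg1 the call was lost without culture 2 and also without culture 3, and for Gys1 without culture 3. The Suclg1 call was also lost with median centring, another variance model and the fit over arrays, that of Taldo1 with median centring and that of Rpia in the fit over arrays. A dimmer probe of Cs (citrate synthase), chosen after its values were seen, was called higher at 0.42 ± 0.21 (limma adjusted p = 0.0450), above 0 on 3 arrays and below 0 on 3, while the brightest Cs probe was at -0.14 ± 0.41 and did not pass.

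**Figure D4:**
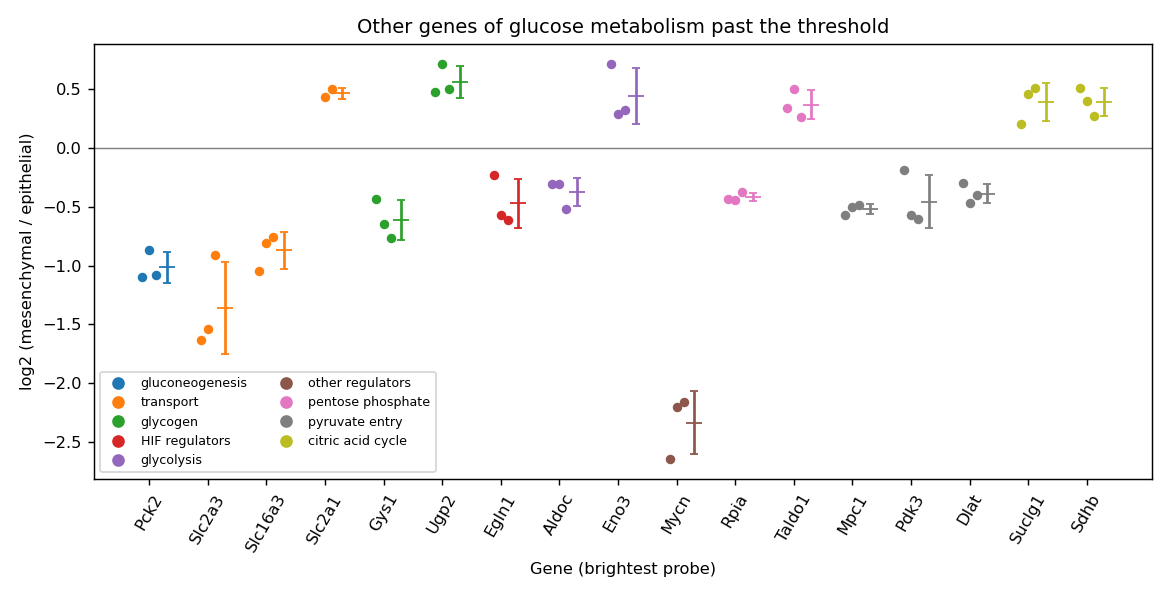
Log2 ratio of mesenchymal over epithelial RNA (vertical axis) for the 17 other genes past the threshold, 1 point per culture with mean and SD, coloured by step. Slc2a3, Slc16a3, Pck2 and Mycn lie lowest, with means of -1.36, -0.87, -1.02 and -2.33.

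Among regulators, Hif1a, the gene of the oxygen-regulated subunit of hypoxia-inducible factor, was at 0.28, -0.16 and 0.20 in cultures 1, 2 and 3 (mean 0.11 ± 0.24, limma adjusted p = 0.658). Egln1, the prolyl hydroxylase that marks it for destruction, fell by 0.47 ± 0.21 (adjusted p = 0.0314). It was the 1 gene called of 8 measured in the pathway of the hypoxia-inducible factors. Leaving out culture 2 or culture 3 ended the call. A dimmer Egln1 probe gave -0.33 and did not pass. Egln3, chosen after its values were seen, was at -0.79 ± 0.51 (n = 2, limma adjusted p = 0.0607) and did not pass. Hif3a, a further HIF subunit gene, was at 0.033 ± 0.11. Myc was at -0.18 ± 0.03 (adjusted p = 0.185), below 0 on all 6 arrays, and Mycn fell by 2.33 ± 0.27 (adjusted p = 0.000291). Mycn was the 1 gene called of 7 other regulators measured, beside 11.3% called over all probes. Sp1 and Trp53, at -0.22 ± 0.22 and 0.018 ± 0.30, did not pass, and Sp1 was called lower without culture 1 (-0.32).

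The genes whose 3 culture values lay nearest to those of Hk1, by Euclidean distance among 7948 named genes outside the lists, were Mroh1, Uqcc2, Slc36a1, Gfra1 and Sat1. Their mean log2 ratios ran from 0.89 to 1.00 and the distances from 0.082 to 0.121. With 3 points a profile this likeness is mostly one of size.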

How the data were processed

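Epithelial and mesenchymal RNA of 3 cultures were compared on 6 two-colour Agilent arrays. Per the file headers, the deposited intensities are spot means and local backgrounds from Feature Extraction A.7.1.1, in linear units. The log10 ratios in the normalised files and in the authors' deposited value table come from signals that this software background-subtracted and lowess-normalised, per the file headers, and the value table equals the dye-swap mean of the arrays with a correlation of 1. The deposited flags and pixel numbers (other values) mark saturated, outlier and dim spots. The dye orientation was taken from the names of the deposited arrays. The submitters' processing notes list limma.

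In limma 3.58.1 (R 4.3.3), background was removed by normexp with an offset of 50, followed by loess within each array, control spots having weight 0. Log2 ratios were signed as mesenchymal over epithelial, then averaged over the dye swap of each culture. Outlier-flagged spots were left out, and saturated spots were kept. A probe had to exceed background clearly in 4 or more of 6 arrays for 1 RNA, which removed 43, and have both arrays of at least 2 cultures. Each of the 20185 remaining probes, 12560 of them named through gene IDs, symbols or synonyms of RefSeq (GRCm38.p6), was tested against 0 (lmFit, eBayes). A gene was called by its brightest probe. Other probes are given for the members and, for other genes of glucose metabolism, where their call differed (2 called where the brightest was not, 3 not called where it was). Dye effects were tested on the mean unturned ratio. The signing, the averaging over the dye swap and the limma fit were checked on simulated log2 ratios. The earlier steps were not part of that check.

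The members, lists and tests were chosen with earlier results of these data known. Named were all members, up to 4 called genes per list with the largest change or the 2 brightest where fewer than 2 were called (a single called gene was named as well), and Slc2a1, Slc16a3, Pdk1, Pfkfb3, Hif1a and Myc. The alternatives were no background correction, the scanner's processed signals, median centring, other filters, saturated spots left out and outlier-flagged spots kept. Further ones were 1 usable array of a culture being enough, the brightest probe per gene, another variance model and a fit over arrays. The last were no pairing, the authors' table and each culture left out. The 3 cultures, each the mean of 2 arrays, limit the precision.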

Additional observations from a re-analysis of the deposited data

How the results depend on the processing

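Hk1 was called higher under all 16 alternatives, with adjusted p in limma of at most 0.0279. The number of the 10 genes called went from 1 to 2 with median centring and ranged from 1 to 3 when 1 culture was left out. It was 3 without culture 1, where Eno1 and Pfkp were called lower. The number of all probes called, 2272, ranged from 809 to 5875 when 1 culture was left out (5875 without culture 1, 1163 without culture 2, 809 without culture 3). With no replicate block, that is without the pairing of the 2 RNAs of a culture, it was 256. For the other genes of glucose metabolism, 17 were called. The number was 4 to 40 when 1 culture was left out (40, 6 and 4 without cultures 1, 2 and 3) and 1 with no replicate block. Without culture 1 the fit gave every probe the same variance, unlike the main fit and those without culture 2 or 3. The calls of Eno1, Pfkp, Pfkfb3, Sp1 and the second Ldha probe without culture 1 come from that fit. The cause of the changed counts was not tested. The sign of the dimmer Hk2 probe, -0.021, turned to 0.056 with median centring and 0.032 with outlier-flagged spots kept. It also turned, to 0.051, where 1 usable array of a culture was enough, and to 0.046 with the authors' deposited table. The second Ldha probe ranged from -0.099 to 0.903 and the second Pfkp probe from 0 to 0.089 over the cultures left out, and the dye effect of Pfkl from -0.110 to 0.067. None of these was called in the main setting. With saturated spots left out, the 5 genes at the ceiling could not be fitted from their brightest probe. Saturation limits what the arrays show for 6 of the 10 genes.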
